A study of Homo sapiens with 2 samples.

Results

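The annexins are a family of proteins that bind the inner face of membranes when calcium rises, and 10 of them were followed in the Huh7 line, which was established from a human hepatocellular carcinoma, with and without knockdown of CD24, a small glycoprotein of the cell surface. The 10 genes were ANXA1, ANXA2, ANXA3, ANXA4, ANXA5, ANXA6, ANXA7, ANXA9, ANXA11 and ANXA13, out of 19775 genes measured. They were chosen by family name, and the family was picked because ANXA1 and ANXA3 alone were clearly higher in the array of the CD24 shRNA cells. The differences below are therefore a description of that choice, and no test rests on them. Both groups were Huh7 cells grown in DMEM with serum and transduced with a lentivirus that expresses a short hairpin RNA (shRNA). The first carried a stable hairpin against CD24 and the second a stable non-target control hairpin, with 1 array of total RNA for each. The labels do not say whether the cells were clones or mixed populations, nor how many CD24 hairpins were used. The series asked which transcripts differ after CD24 knockdown.

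Annexins share a core of repeats, each of which can hold calcium between the protein and acidic phospholipids, and differ mainly in the short tail in front of that core. The tail carries the contacts that give each member its role, such as the contact of annexin A1 with formyl peptide receptors and that of annexin A2 with the S100A10 dimer. The family is known for roles in exocytosis, endosome traffic, repair of torn plasma membrane and the damping of inflammation. Normal hepatocytes are known for annexin A6 and little annexin A1.

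The promoters of ANXA1 and ANXA3, the members that were higher, are given with that of ANXA2, a member that lay close to 0, so that the sequences in front of them can be compared. The sequences are from RefSeq on build GRCh38.p14 and cover the 250 bases before the annotated start, read 5′ to 3′ on the strand of the gene. Capitals mark matches to the motifs searched. These were, on both strands, the TEAD motif GGAATG, the AP-1 motif TGANTCA, the STAT motif TTCNNNGAA, the glucocorticoid receptor palindrome, the SRF CArG box and the CCAAT box (CCAAT), and on the gene strand the TATA box TATAAA. The TATA and CCAAT boxes were added after the sequences were seen. No 2 of these motifs overlap in the windows shown. The ANXA1 window is chr9:73151615-73151864, the ANXA3 window chr4:78551520-78551769, both on the plus strand, and the ANXA2 window chr15:60397987-60398236 on the minus strand.
ANXA1: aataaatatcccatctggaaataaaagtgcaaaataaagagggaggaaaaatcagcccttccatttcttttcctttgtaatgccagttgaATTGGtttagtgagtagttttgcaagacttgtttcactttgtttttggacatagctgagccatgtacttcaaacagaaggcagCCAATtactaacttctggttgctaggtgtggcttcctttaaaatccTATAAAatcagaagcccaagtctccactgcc
ANXA3: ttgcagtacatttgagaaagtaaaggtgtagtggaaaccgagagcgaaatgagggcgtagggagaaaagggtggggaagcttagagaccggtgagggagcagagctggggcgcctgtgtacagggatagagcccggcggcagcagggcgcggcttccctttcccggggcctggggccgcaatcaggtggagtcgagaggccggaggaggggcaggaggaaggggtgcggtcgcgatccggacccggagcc
ANXA2: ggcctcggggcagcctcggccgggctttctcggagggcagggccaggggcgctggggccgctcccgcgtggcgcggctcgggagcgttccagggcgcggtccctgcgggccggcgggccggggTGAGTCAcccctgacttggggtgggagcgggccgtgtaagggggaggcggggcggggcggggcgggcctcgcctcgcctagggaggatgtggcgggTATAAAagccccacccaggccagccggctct

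The promoters of the higher members did not look alike. The ANXA1 window had a GC content of 38.4% and 0 CpG dinucleotides, and 10.1% of the 35116 promoter windows in the table had a lower GC content. The ANXA3 window had a GC content of 64% and 18 CpG dinucleotides, above the medians of all windows, which were 58% and 11. A lower GC content was found in 64.4% of windows. ANXA1 held a TATA box 31 to 26 bases before its start, and ANXA2 held one at the same distance, whereas ANXA3 held none of these letters. A TATA box was found in 6.8% of all windows. ANXA1 held a CCAAT box 77 to 73 bases before its start and the same box on the other strand at 160 to 156 bases, and 32% of all windows held at least 1. The AP-1 match of ANXA2 lay 127 to 121 bases before its start, and 6.57% of all windows held one.

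Across the family, 9 of the 10 members had a promoter in the table, in 13 windows whose GC content ran between 38.4% and 78.8%. ANXA1 had the lowest of these. A TATA box was found in 3 of the 13 windows, those of ANXA1 and ANXA2 and 1 of ANXA11, and a CCAAT box in 4, of ANXA1, ANXA6, ANXA7 and ANXA11. No window of a member held the TEAD motif, found in 11.9% of all windows, the STAT motif (6.57%) or the glucocorticoid receptor palindrome (0.00285%). That palindrome was found in 1 of the 35116 windows, so its absence from the 13 could be foreseen. 1 window held the SRF CArG box, which was found in 1.16% of all windows, and it belonged to ANXA7, a member that lay close to 0. A match is a match of letters only.

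The array is an Affymetrix chip on which a transcript is read by 1 or more probe sets, each a group of short probes. In the deposited table every probe set is centred on the mean of its log2 values, so the CD24 shRNA value is the control value with the sign turned, and transcript levels are not given. The quantity given below is the log2 difference, CD24 shRNA minus control, per probe set or as the mean over the probe sets of a gene. With 1 array per group no difference has a replicate check and no p-value was computed. The SD given for a gene is over its probe sets, and the pooled SD between probe sets of a gene was 0.27 (10523 genes with several probe sets). The knocked-down gene CD24 lay at -0.68 in the CD24 shRNA array and at 0.68 in the control array, a log2 difference of -1.37 ± 0.38 (SD, 6 probe sets). All 6 probe sets were lower in the CD24 shRNA array. In a culture measured as a whole, a change in the number of cells that make a transcript cannot be told apart from a change in RNA per cell. Of 7 hepatocyte markers measured, none differed by 2-fold, a count near the share over all genes (0.632% higher and 0.485% lower). Of the 7, 3 lay above 0, and they ran from TF at -0.45 ± 0.30 (SD, 4 probe sets) to FGB at 0.59 ± 0.02 (SD, 2 probe sets). Of their 19 probe sets, 1 was placed near the background of the array by the digits of the file.

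ANXA3 and ANXA1 were the members that passed 2-fold with CD24 shRNA, both upward. Across the array, 0.632% of genes were higher by 2-fold or more and 0.485% were lower by as much. At 3-fold, which the same pair passed upward and no member downward, the shares were 0.162% higher and 0.086% lower. Of the 20 annexin probe sets, 2 were higher by 2-fold or more, against 1.01% of the 41091 probe sets that name 1 gene, and 0 were lower by as much, against 0.601%. The probe set nearest below that threshold was the second of ANXA1, at 1.97-fold. Since the family was picked for this pair, the share of members says nothing further. The median over the 10 members was 0.14, against 0 over all genes, and 6 members lay above 0 and 4 below, or 8 above and 2 below when the arrays were scaled on their hybridisation controls. That scaling adds 0.11 to every difference given here, and moves the shares of genes past 2-fold to 0.915% higher and 0.339% lower. The other 8 members lay between -0.27 and 0.17, each smaller in size than the pooled SD between probe sets, as were 76.0% of all genes.

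**Figure D1:**
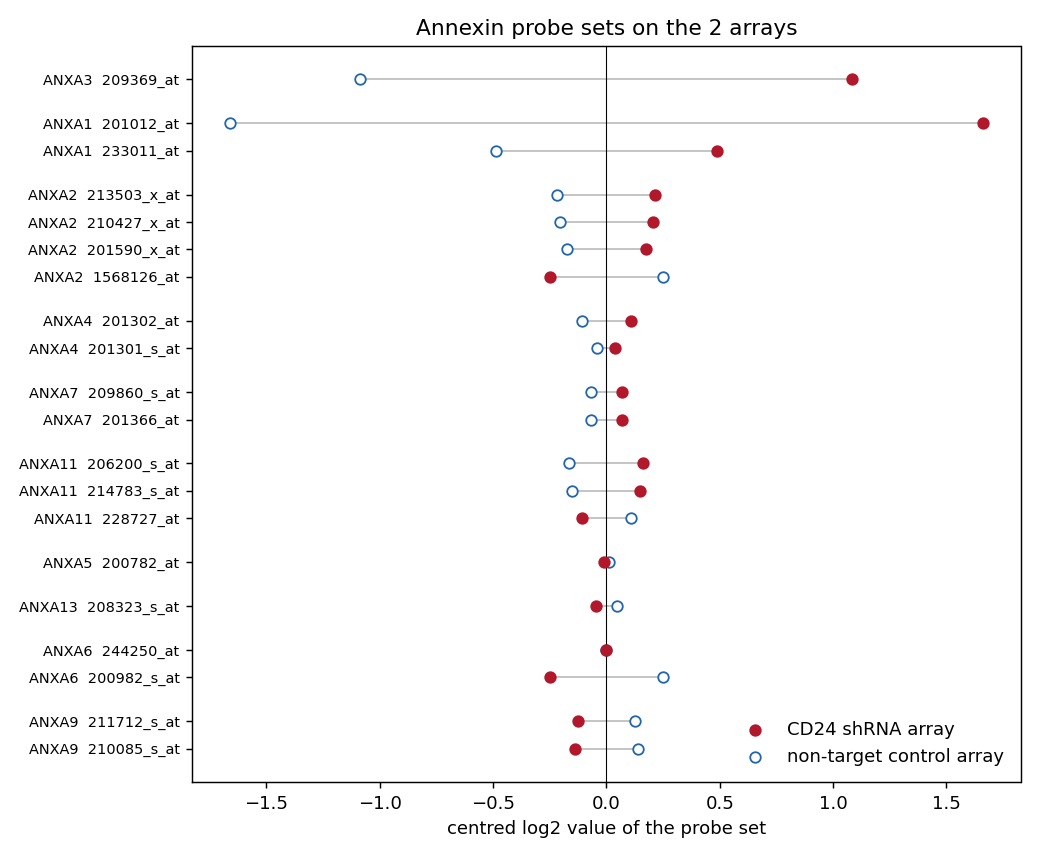
Centred log2 value of each of the 20 annexin probe sets (x axis) in the CD24 shRNA array (filled red) and the non-target control array (open blue), with genes ordered by their mean difference. The ANXA3 probe set and both ANXA1 probe sets are spread widest, with the CD24 shRNA array on the right, while the other 17 probe sets differ by between -0.50 and 0.43 on the log2 scale.

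ANXA1, annexin A1, is induced by glucocorticoids in many cells, limits the release of arachidonic acid by phospholipase A2 and signals through formyl peptide receptors when released. Its first probe set, 201012_at, built on the reference transcript, had a centred log2 value of 1.66 in the CD24 shRNA array and -1.66 in the control array. This is a 10.0-fold difference (log2 difference 3.32), at rank 6 from the highest of 54675 probe sets. The second, 233011_at, built on an expressed sequence tag, had 0.49 in the CD24 shRNA array and -0.49 in the control array, a 1.97-fold difference (0.98). Both probe sets were higher in the CD24 shRNA array, but they disagreed on the size. Their mean was 2.15 ± 1.66 (SD, 2 probe sets), or 4.44-fold, at rank 16 from the highest of 19775 genes. A range between probe sets as wide as that of ANXA1, 2.35, was found in 14 of the 10523 genes with several probe sets, ANXA1 included, and in 3 of the 5015 genes with 2 probe sets. The value of ANXA1 therefore depends on the probe set, while its direction was the same on both.

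The digits of the file gave a bound on the level of ANXA1. They keep the rounding of the single-precision numbers they were made from, and such numbers come in finer steps below 8 than above it and in still finer steps below 4. The labels do not state how the values were centred, and subtraction in single precision was assumed. Where a centred value sits on a finer grid than numbers from 8 upward allow, this places the dimmer array below 8 (log2). Where that step shows in the brighter array, it places the mean of the pair there too. By this rule the mean of 201012_at lay below 8, so that its level was under 9.66 in the CD24 shRNA array and under 6.34 in the control array. For 233011_at the bounds were 8.49 in the CD24 shRNA array and 7.51 in the control array. Neither ANXA1 probe set was placed below 4, near the background of the array. The rule gives upper bounds only, and a probe set that it does not place may be dim all the same. Checked on gene families, it placed 105 of 191 probe sets of olfactory receptor, taste receptor and keratin-associated genes below 4 and 8 of 114 of ribosomal protein genes.

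ANXA3, annexin A3, is known as an abundant protein of neutrophils and as a phospholipid-binding relative of annexin A1. It was read by 1 probe set, 209369_at, with a centred log2 value of 1.09 in the CD24 shRNA array and -1.09 in the control array. This is a 4.50-fold difference (log2 difference 2.17), at rank 15 from the highest of 19775 genes and rank 40 of 54675 probe sets. The digits gave no bound on its level. ANXA3 and the mean of ANXA1 thus lay next to each other in the ranking of all genes, although ANXA3 has no second probe set and those of ANXA1 lie on either side of it.

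**Figure D2:**
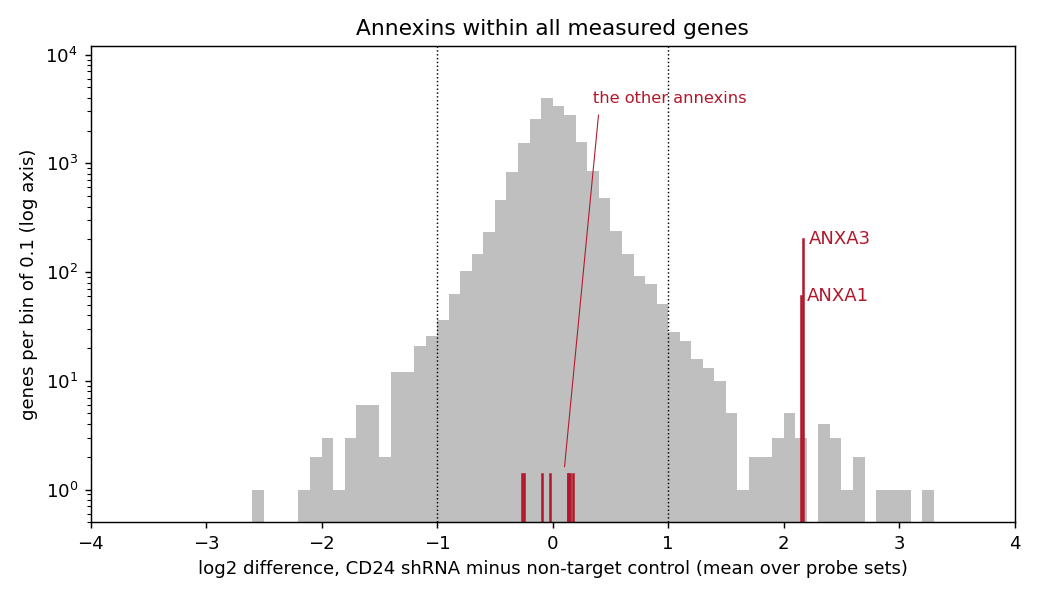
Histogram of the mean log2 difference of all 19775 genes, CD24 shRNA minus non-target control (x axis), with the number of genes per bin on a log axis. Red lines mark the annexins (their heights carry no value) and dotted lines mark 2-fold, and ANXA3 at 2.17 and ANXA1 at 2.15 stand in the right tail while the other 8 members lie between -0.27 and 0.17.

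ANXA2, annexin A2, forms a complex with the S100A10 dimer at the cell surface, where it binds plasminogen and its activator. Its probe sets fell into a group of 3 and a single one. The 3 probe sets with names ending in _x_at lay between 0.35 and 0.43 (mean 0.40 ± 0.04, SD). The other, 1568126_at, lay at -0.25 in the CD24 shRNA array and 0.25 in the control array (log2 difference -0.50), and both its mean and its dimmer array were placed below 4. The mean over all 4 was 0.17 ± 0.45 (SD, 4 probe sets), and the sign of ANXA2 therefore turned on which probe sets were used. Names ending in _x_at mark probes that can match other transcripts. ANXA2 has near-identical processed copies in the genome, and the probe sets named for these pseudogenes lay at 0.59 for ANXA2P1, 0.35 for ANXA2P2 and 0.15 for ANXA2P3. Signal of ANXA2 and of its copies cannot be told apart on these probes. ANXA2R, which encodes an annexin A2 receptor, lay at 0.13 (1 probe set).

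ANXA6 and ANXA9 had the lowest means. ANXA6, a member with a doubled core that acts in cholesterol-rich endosomes, lay at -0.25 in the CD24 shRNA array and 0.25 in the control array on 200982_s_at, a 1.41-fold lower value with CD24 shRNA (log2 difference -0.50), and its other probe set was tied at 0. Its mean was -0.25 ± 0.35 (SD, 2 probe sets). ANXA9, an unusual member that has lost the residues for calcium binding, lay at -0.28 and -0.25 on 2 probe sets that agreed (mean -0.27 ± 0.02, SD). The dimmer array of both was placed below 8. No member that was lower reached 1.5-fold, which 2.38% of all genes did, and 2 members, ANXA1 and ANXA3, were at least 1.5-fold higher, against 2.63% of all genes.

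The remaining members lay close to 0. ANXA4, an annexin of epithelial secretory cells, had a mean difference of 0.15 ± 0.10 (SD, 2 probe sets). ANXA7, also known as synexin and named for its fusion of secretory granules, had 0.14 on each of 2 probe sets. ANXA11, which ties RNA granules to lysosomes, had 0.33 and 0.30 on a pair of probe sets and -0.22 on 228727_at, whose mean was placed below 8 (gene mean 0.14 ± 0.31, SD, 3 probe sets). ANXA5, used as a probe of phosphatidylserine on dying cells, was the nearest to 0 at -0.02, and ANXA13, an annexin of the intestinal epithelium, lay at -0.09, each on 1 probe set. No order was read into the 8 members other than ANXA1 and ANXA3, since error between arrays cannot be estimated with 1 array per group. Each of the 8 differences was smaller in size than the pooled SD between probe sets, as were 76.0% of all genes. ANXA10, a further family member known from gastric epithelium, was listed at 0 in both arrays on its 1 probe set.

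The genes that neighbour ANXA1 and ANXA3 on their chromosomes were read beside them. ANXA1 lies on chromosome 9 and ANXA3 on chromosome 4. The 3 nearest measured protein-coding genes on each side of each, 12 in all, lay between -0.06 and 0.20. None reached 1.5-fold, which over all genes 2.63% did upward and 2.38% downward. Next to ANXA1, the retinal dehydrogenase gene ALDH1A1 lay at 0.20 and the nuclear receptor gene RORB at 0.13 ± 0.18 (SD, 3 probe sets, all placed below 4). Next to ANXA3, the matrix protein gene FRAS1 lay at -0.05 ± 0.23 (SD, 6 probe sets) and the kinase gene BMP2K at 0.09 ± 0.22 (SD, 6 probe sets). All 12 were within the pooled SD between probe sets, as were 76.0% of all genes. This comparison was chosen after the annexin values were known.

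**Figure D3:**
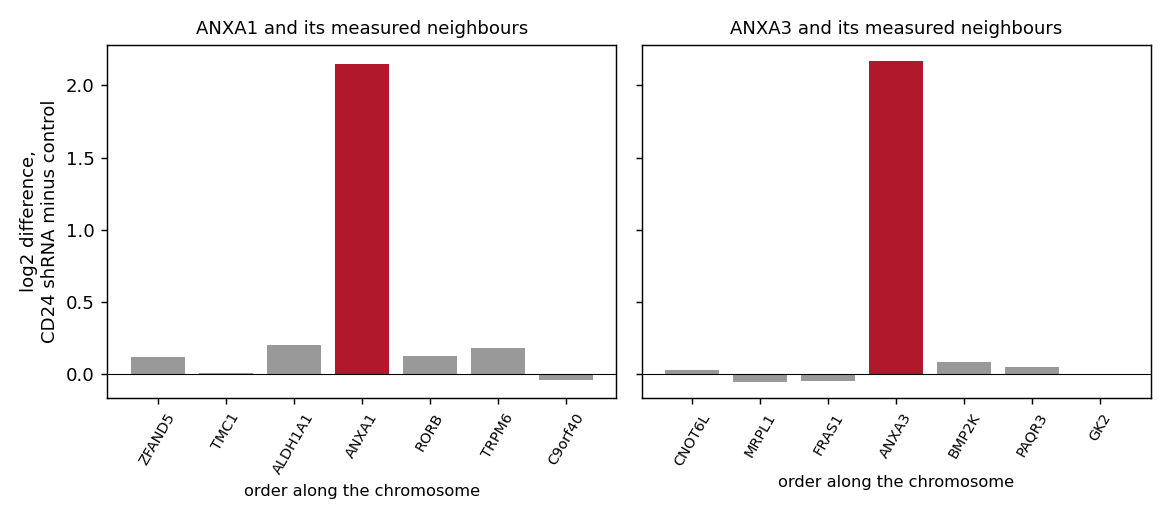
Mean log2 difference, CD24 shRNA minus non-target control (bars, y axis from 0), of ANXA1 and ANXA3 (red) and the 3 nearest measured protein-coding genes on each side (grey), in order along the chromosome. The annexins stand at 2.15 and 2.17 and the 12 neighbours between -0.06 and 0.20.

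Partners of the annexins were read in 7 lists, which together held 93 measured genes. With CD24 shRNA 2 of these passed 2-fold upward and 2 downward, beside 0.632% upward and 0.485% downward over all genes. Over all genes 49.4% lay above 0, and the counts of list members above 0 stand beside that share. Of 9 light chains and EF-hand partners measured, 7 lay above 0, among them PDCD6 and S100B at 0.02 each, and the median was 0.13. S100A10, the light chain of annexin A2, was 1.61-fold higher (0.69 ± 0.25, SD, 2 probe sets), with 0.26 and 0.43 in the CD24 shRNA array and -0.26 and -0.43 in the control array. Both of its probe sets lay above those of ANXA2. S100A11, a partner of annexin A1, lay at 0.36 (1 probe set) and SRI, the calcium sensor sorcin, at 0.37 ± 0.03 (SD, 2 probe sets). S100A4, a motility-linked S100 protein that binds annexin A2, was 2.17-fold lower, with -0.56 in the CD24 shRNA array and 0.56 in the control array (log2 difference -1.12, 1 probe set). Its probe set has a name ending in _s_at, for probes shared by several transcripts, which may be of the same gene. Without such probe sets S100A4 had no value.

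Of 11 measured genes of the receptors and enzymes around annexin A1, 6 lay above 0 and 5 below, with a median of 0.06. None passed 2-fold, a count near the share over all genes. FPR2, the main annexin A1 receptor, had 0.30 and -0.31 on its 2 probe sets, and FPR1 lay at 0.20 ± 0.02 and FPR3 at 0.39 ± 0.07 (SD, 2 probe sets each). Each of these receptors had 1 probe set placed below 4. PLA2G4A, the cytosolic phospholipase A2, was 1.62-fold lower (log2 difference -0.70, 1 probe set), with -0.35 in the CD24 shRNA array and 0.35 in the control array. PTGS2, the inducible cyclooxygenase, lay at 0.21 ± 0.15 (SD, 2 probe sets, both placed below 4), and PRTN3, a neutrophil protease that cleaves annexin A1, at 0.29 (1 probe set, placed below 4).

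Genes of the glucocorticoid response lay on both sides of 0. Of 11 measured, 8 lay above, with a median of 0.13, and none passed 2-fold, again near the share over all genes. MT2A, a metallothionein, was 1.79-fold higher (0.84, 1 probe set) and DUSP1, a MAP kinase phosphatase, 1.60-fold higher (0.68 ± 0.39, SD, 3 probe sets). ZBTB16, a zinc-finger transcription factor, lay at 0.34 (1 probe set). KLF9 lay at -0.42 ± 0.46 (SD, 5 probe sets, 3 placed below 4). Of the members outside the naming rule, chosen after their values were seen, CDKN1C, a cell cycle inhibitor, was 1.72-fold higher (0.78 ± 0.55, SD, 5 probe sets, 4 of them above 0), and FKBP5 and TSC22D3, a pair of widely used targets of the receptor, lay at -0.34 ± 0.28 and -0.30 ± 0.39 (SD, 3 probe sets each). NR3C1, the receptor itself, lay at 0.13 ± 0.03 (SD, 5 probe sets).

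Among genes of plasminogen activation at the cell surface, 10 were measured, 5 on each side of 0, with a median of -0.05. PLG, the plasminogen precursor that hepatocytes secrete, was 2.24-fold lower on 3 probe sets that agreed (-1.17 ± 0.22, SD), 1 of them placed below 4. Its values lay between -0.67 and -0.46 in the CD24 shRNA array and between 0.46 and 0.67 in the control array. PLAU, the urokinase activator, lay at 0.42 ± 0.03 (SD, 2 probe sets), and KRT8, a keratin that binds plasminogen at the surface, was 1.90-fold higher (0.93, 1 probe set). Thus S100A10 and KRT8 lay above 0 and PLG below. The others below 0 were PLAUR at -0.24 ± 0.27, ENO1 at -0.19 ± 0.23, SERPINE2 at -0.12 ± 0.25 (SD) and PLGRKT at -0.10.

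The list of membrane repair genes held the 2 partners that were at least 2-fold higher, beside 0.632% of all genes. It was chosen, like the other lists, with earlier results of these data known. Of 19 measured genes, 13 lay above 0, beside 49.4% over all genes, with a median of 0.15. MYOF, myoferlin, a ferlin of membrane repair and fusion, was 3.39-fold higher on average (1.76 ± 1.34, SD, 3 probe sets), with 2.65 and 2.41 on a pair of probe sets and 0.23 on the third. The dimmer array of the first and the third of these was placed below 4, as was the mean of the third. The pair that was high has names ending in _s_at, for probes shared by several transcripts, which may be of the same gene. Without them MYOF was left with the third, at 0.23, and no longer passed 2-fold. CAPN2, the large subunit of calpain 2, had 2.35 on 208683_at and -0.04 on 214888_at (mean 1.16 ± 1.69, SD, 2 probe sets). The probe sets of MYOF disagreed on the size of the difference, and those of CAPN2 on its sign as well. CAVIN1, a coat protein of caveolae, was 1.86-fold higher, with agreement over 3 probe sets (0.89 ± 0.09, SD), CAV1, caveolin, lay at 0.41 ± 0.19 (SD, 2 probe sets) and SNAP23, a fusion protein of exocytosis, at 0.44 ± 0.31 (SD, 4 probe sets). DYSF, dysferlin, lay at 0.27 (1 probe set).

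Other proteins that bind membranes with calcium are the copines, synaptotagmins and extended synaptotagmins. Of 24 measured, 11 lay above and 11 below 0, with a median of 0, and none passed 2-fold, a count near the share over all genes. CPNE3 lay at -0.66 ± 0.61 and SYT1 at -0.65 ± 0.16 (SD, 2 probe sets each), and these were the lowest. CPNE3 had -1.09 on a probe set whose dimmer array was placed below 4, and -0.22 on the other. SYT17 lay at -0.24 ± 0.15 (SD, 2 probe sets) and CPNE1 at -0.21 (1 probe set). Of 11 genes that set the exposure of phosphatidylserine, the lipid that annexin A5 binds, 5 lay above and 6 below 0, with a median of -0.02. ATP11B, a lipid flippase, was 1.70-fold higher, with agreement over 6 probe sets (0.76 ± 0.13, SD). ANO6, a lipid scramblase, lay at 0.46 ± 0.09 and ATP8B1, a flippase of the bile canaliculus, at -0.33 ± 0.13 (SD, 2 probe sets each). XKR8, a scramblase of dying cells, lay at -0.07 (1 probe set).

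**Figure D4:**
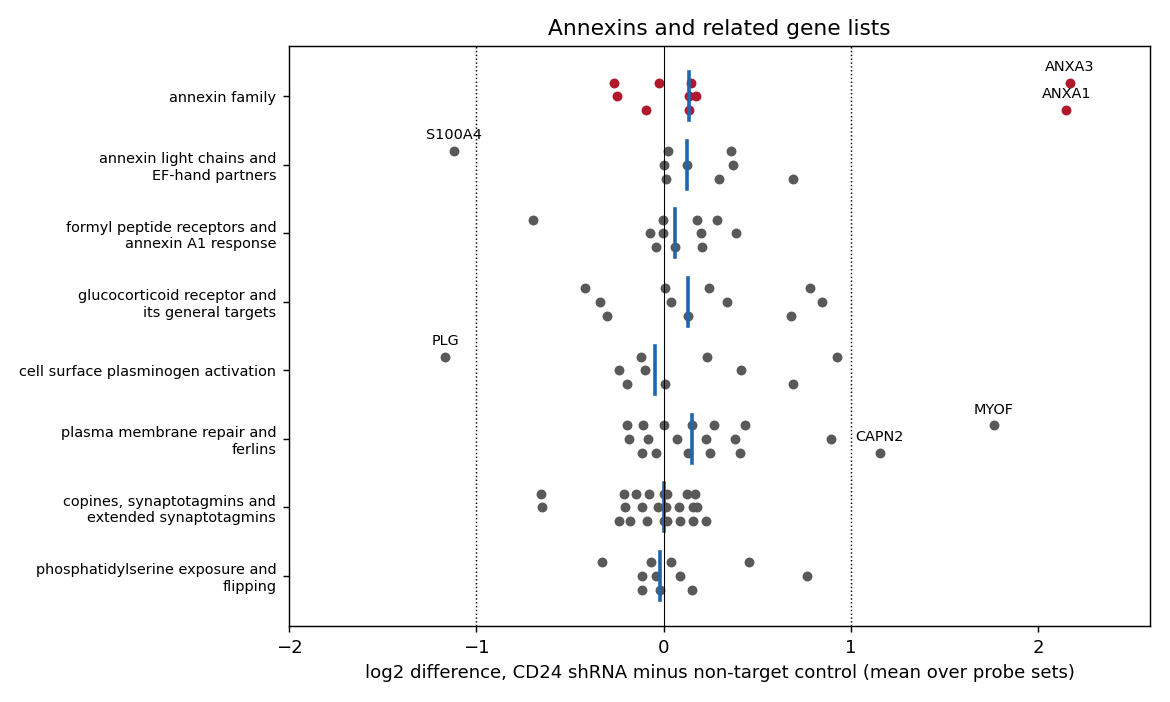
Mean log2 difference of each gene, CD24 shRNA minus non-target control (x axis), for the annexins (red points) and 7 lists of partners and related genes (grey points), with the list median as a blue bar and dotted lines at 2-fold. Genes past 2-fold are named: ANXA1, ANXA3, MYOF and CAPN2 on the right, S100A4 and PLG on the left.

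ANXA1 and ANXA3 are also transcripts of cells other than hepatocytes, so markers of such cells were read beside them. Of 8 fibroblast and stellate cell markers, 7 lay above 0 and 3 were at least 2-fold higher, beside 49.4% and 0.632% over all genes, and 13 of their 29 probe sets were placed below 4. Their median was 0.34 and their range -0.13 to 2.67. The 3 were TAGLN at 2.67 ± 2.27 (SD, 3 probe sets), COL3A1 at 2.35 ± 1.77 (SD, 5 probe sets) and LUM at 1.12 ± 1.41 (SD, 2 probe sets). Single probe sets ran from 0.05 to 4.02 for TAGLN, 0.11 to 3.78 for COL3A1 and 0.13 to 2.12 for LUM. Of these, 4 of COL3A1 and 2 of LUM were placed below 4. The other markers were ACTA2 at 0.40, COL1A2 at 0.28, DCN at 0.04, PDGFRB at 0.02 and COL1A1 at -0.13. Of 5 leukocyte markers, none was 2-fold higher and 1 was 2-fold lower, beside 0.632% and 0.485% over all genes. They lay between -1.68 and 0.17, and 6 of their 13 probe sets were placed below 4. The lowest was LYZ, lysozyme, which was 3.21-fold lower (-1.68 ± 0.15, SD, 2 probe sets). All 4 endothelial markers lay below 0, with a highest value of -0.04, and 4 of their 9 probe sets were placed below 4. Of all 41091 probe sets that name 1 gene, 10453 were placed below 4. Both cultures are labelled as Huh7 alone. Whether other cells were present, or had a part in the annexin differences, was not tested. The summed level of a marker list cannot be given, because the table holds no levels.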

How the data were processed

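RNA of 2 cultures of Huh7 was hybridised to 1 Affymetrix array each. The authors deposited log2 values made with RMA (robust multi-array average), per the submitters' processing notes. For the version and the centring step, the labels say nothing. The 2 values of a probe set sum to 0 within 1e-06, and each array has a median of 0. Direction, higher for more transcript, follows CD24.

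Of 54675 probe sets, 62 controls, 1801 with several gene symbols and those without one were left out. The other 41091 probe sets gave 19775 genes. The RefSeq table of GRCh38.p14 held the Entrez ID of 41037 of these probe sets and changed 0 symbols. The 3 probe sets that name an annexin beside another gene were left out, 2 of them for ANXA8 and ANXA8L1. A gene's value is the mean difference over its probe sets, and 2-fold was the threshold.

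The members and lists were chosen with earlier results of these data known. Named were all annexins, CD24 and up to 4 genes per list with the largest difference among those whose probe sets had 1 sign; CAPN2, FPR1, FPR2, NR3C1, DYSF and others outside this rule were named after their values were seen. No protein comparison, though planned, was made, and no genes of like pattern were sought, since over 2 arrays all genes of 1 sign share a pattern. Calculations used Python 3.11.15 and pandas 2.3.3 and were tested on made-up data. The number of arrays limits the precision.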

Additional observations from a re-analysis of the deposited data

How the results depend on the processing

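The counts of 2 annexins past 2-fold upward and 0 downward were the same with the median or the largest probe set per gene, without probe sets named _s_at or _x_at (which left 2 members without a value), without those placed below 4, with arrays centred on their median, with scaling on 18 hybridisation control probe sets, and at 1.5-fold and 3-fold. That scaling adds 0.11 to every difference, and the sign of 2 members, ANXA5 and ANXA13, then turns. The median over the members moved by less than the pooled SD between probe sets in all 6 settings that give one. Some settings could not move a value. Centring on the array median shifts nothing, since each array already has a median of 0. ANXA1 and ANXA3 have no probe set named _s_at or _x_at and none placed below 4, so leaving those out could not change them. The largest probe set can only raise ANXA1, and the median of its 2 is their mean. These settings could therefore not lower the upward count of 2. ANXA3, ANXA5 and ANXA13 have 1 probe set each, so taking the median or largest probe set leaves them as they are. The median is also the mean for the other members with 2 probe sets. Among the members only ANXA2 has a probe set placed below 4. The control scaling moves each value by 0.11, less than the pooled SD between probe sets. Of 58 recomputed member values, those that could not move included, 54 stayed within that SD. That count therefore says little about how the values depend on the processing. None of the values past 2-fold, which belong to the pair the family was picked for, changed sign. The 4 that moved were ANXA1 at 3.32 and ANXA2 at -0.50 with the largest probe set, and ANXA2 at -0.50 and ANXA11 at -0.22 without probe sets named _s_at or _x_at, which follows from the probe sets kept. Among the 93 partner genes, 4 were higher and 4 lower with the largest probe set (1.53% and 1.06% of all genes), 1 higher and 1 lower of 78 without probe sets named _s_at or _x_at (0.579% and 0.509%), 4 higher under the control scaling (0.915%), and 9 higher and 5 lower at 1.5-fold (2.63% and 2.38%). No paired analysis was possible because each group has 1 array. Leaving out an array was not possible for the same reason. Levels are absent, so signal over background was read only from the digits of the file.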
